A study of Mus musculus with 19 samples.

Results

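Sox10, Cdh19, Ngfr, S100b, Mbp and Mia are 6 genes that serve as markers of Schwann cells, and transcripts of Sox10, Cdh19 and Ngfr were found at their highest in cells sorted as luminal epithelium of the mouse anterior prostate. The 6 genes were taken by symbol from the 24343 gene symbols measured, and they are represented by 13 of the 34535 transcripts. They were chosen by their FPKM across the sorted populations, after earlier results of these data had shown Schwann cell markers in the luminal sort, so their levels across cell populations are given as a description, without a test. The genotype comparisons below were also not blind to earlier results.

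RNA sequencing was done on basal, luminal and stromal cells isolated by flow sorting, 19 libraries in all. The Lgr5-DTR mice (Lgr5-DTR-eGFP) carry a diphtheria toxin receptor and green fluorescent protein at Lgr5, an R-spondin receptor gene, and had been given diphtheria toxin, which kills cells bearing the receptor. They gave 3 luminal, 3 basal and 4 stromal libraries, and control wild type (WT) mice gave 3 of each. The study asked what changes in the remaining cells once Lgr5-expressing stromal cells are ablated. Dose, interval after toxin and age of the animals are not given in the sources used here. The toxin receptor follows Lgr5 and is not limited to stromal cells. Purchased C57BL/6 mice are named in the labels, the Lgr5-DTR-eGFP line came from another laboratory, and toxin is stated for the Lgr5-DTR animals alone, so that genotype, toxin and animal source cannot be told apart. Whether each library is a different animal is not stated either, and p-values therefore cover library-to-library spread that may be purely technical.

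Schwann cells are the glia of peripheral nerves. The transcription factor Sox10 is needed for their specification and is kept through adult life, neuregulin signalling through Erbb3 supports their survival, and Egr2 drives the switch to myelin formation. Nerves run through the prostate stroma, and many of their axons are ensheathed by Schwann cells that make no myelin. After nerve injury Schwann cells can adopt a repair state in which Ngfr, Sox2 and Gap43 are raised and myelin genes are lowered.

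Values are FPKM, a level scaled to transcript length and to library size, summed over the transcripts of a gene. Log2 differences are Lgr5-DTR minus WT of log2(FPKM + 1), which understates the change of low genes. Calls were made by limma at a Benjamini-Hochberg adjusted p of 0.05 over all genes that reached 1 FPKM in at least 3 libraries of the population. Libraries held 5.26 to 9.38 gigabases on annotated transcripts. The summed level of 17 luminal epithelial markers was 20240.3 to 29123 FPKM in Lgr5-DTR and 29157 to 33552 FPKM in WT luminal libraries. Pbsn, probasin, made up a large part of it, with a mean of 8849 FPKM in Lgr5-DTR and 19612 FPKM in WT luminal libraries. Of the 17 markers, 11 had a luminal log2 difference above 0. The sum of the 17 was 12155.5 to 19182 FPKM in Lgr5-DTR and 10454 to 11154 FPKM in WT basal libraries, and 147 to 732 FPKM in Lgr5-DTR and 277 to 764 FPKM in WT stromal libraries. Lgr5, the targeted gene, was at 0.501 to 1.32 FPKM in Lgr5-DTR stromal libraries, against 25.8 to 77.6 FPKM in WT stromal libraries. In luminal libraries Lgr5 was at 0.554, 0.671 and 0.610 FPKM in Lgr5-DTR, against 1.99, 1.54 and 1.92 FPKM in WT, without overlap. Of the 19 libraries, 7 carried a low-data flag on 424 transcripts each and had 2552 to 3112 transcripts above their own upper confidence limit, while the others had at most 3. These 7, called the processing set below, included Lgr5-DTR luminal replicate 1 and WT luminal replicates 1 and 3. In this bulk material fewer cells of a type and less RNA per cell cannot be told apart.

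As markers of the luminal sort the 6 genes were not alike. Within each genotype, every luminal library lay above every basal and stromal library for Sox10, Cdh19 and Ngfr, and in the Lgr5-DTR libraries also for S100b. Mbp and Mia were highest in basal cells, and S100b stayed low everywhere. In Lgr5-DTR cells 3110 of 11724 genes (26.5%) showed every luminal library above all others, and in WT cells 3265 of 11571 (28.2%).

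**Figure D1:**
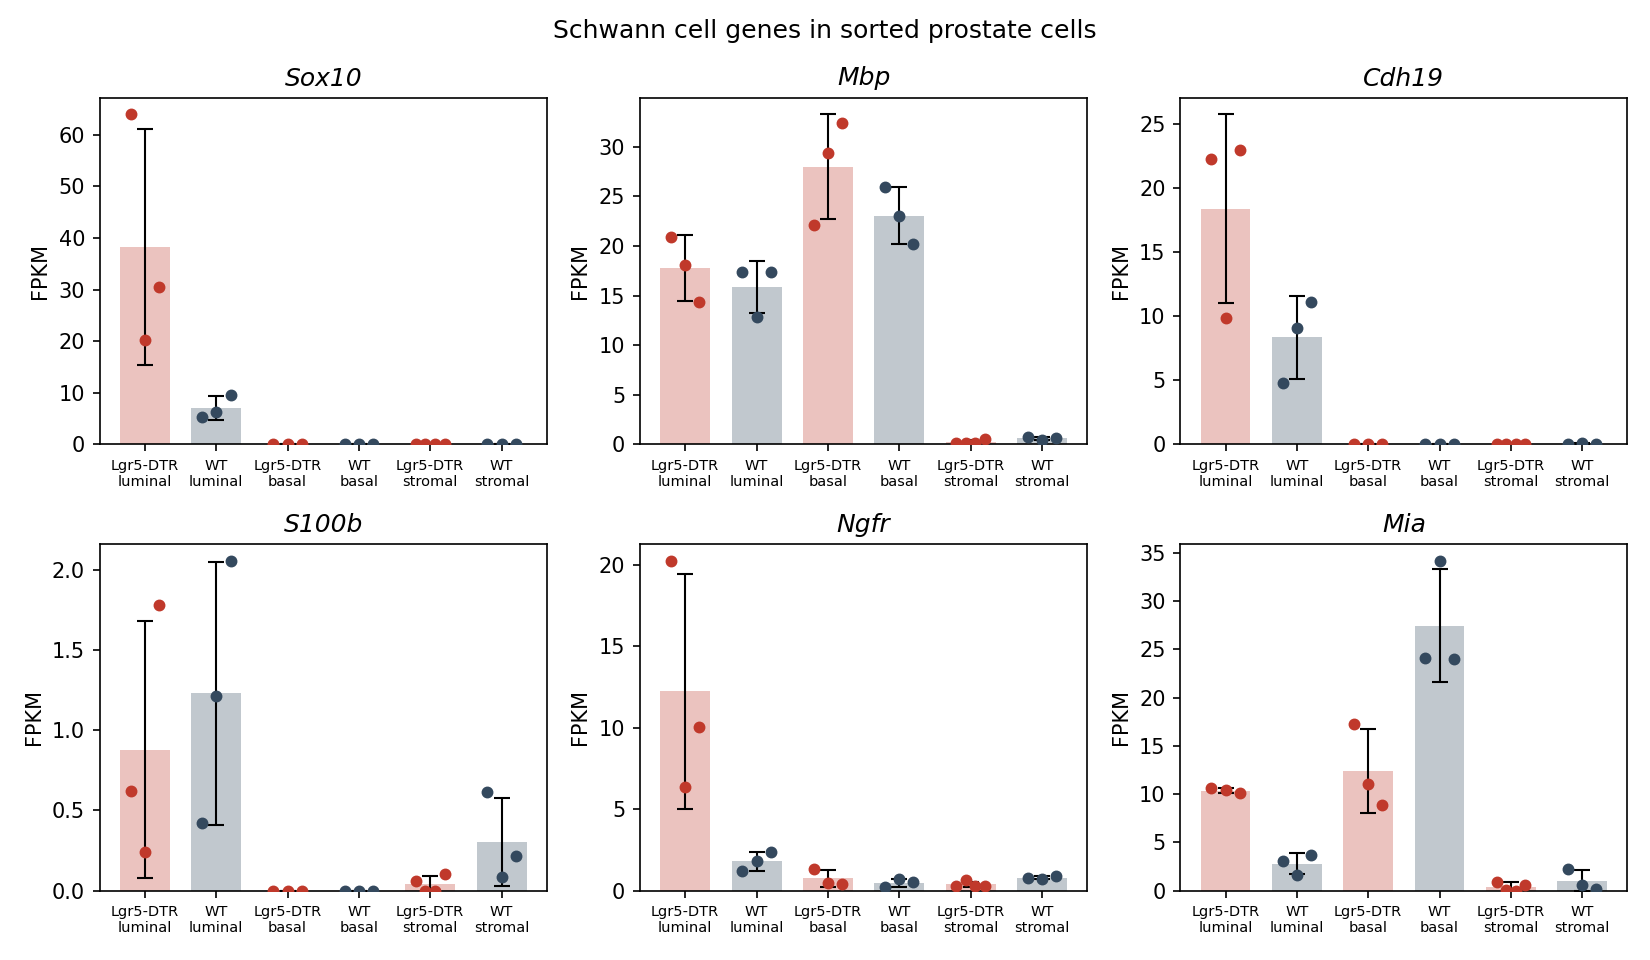
FPKM of the 6 genes by population and genotype. Points are libraries, bars are group means and error bars are SD (n = 3, and n = 4 for Lgr5-DTR stromal cells). Sox10, Cdh19 and Ngfr stand in luminal cells, Mbp in luminal and basal cells, Mia highest in WT basal cells, and S100b does not pass 2.06 FPKM.

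Sox10 (chromosome 15, 79154913 to 79164490, mm10), the SoxE transcription factor that marks the whole Schwann lineage, measured 64.0, 20.3 and 30.5 FPKM in the Lgr5-DTR luminal libraries, against 5.24, 6.23 and 9.56 FPKM in the WT luminal libraries. All 3 Lgr5-DTR luminal libraries were above all 3 WT ones. In basal cells Sox10 was at most 0.0567 FPKM in Lgr5-DTR and 0.0405 FPKM in WT libraries. In stromal cells it was at most 0.0298 FPKM in Lgr5-DTR and 0.0493 FPKM in WT libraries, so no other population came near the luminal level. The luminal mean was 38.3 ± 22.9 FPKM in Lgr5-DTR and 7.01 ± 2.26 FPKM in WT cells (SD, n = 3 each), a log2 difference of 2.17 (SE 0.39, limma adjusted p = 0.0280). For this gap as for every other in which 3 libraries lie wholly above 3, an exact two-sided permutation test gives p = 0.1, the smallest possible with 3 against 3.

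Cdh19 (chromosome 1, 110889195 to 110977372), a cadherin of Schwann cell precursors and mature Schwann cells, measured 22.3, 9.86 and 22.9 FPKM in Lgr5-DTR luminal libraries, against 4.81, 9.10 and 11.1 FPKM in WT luminal libraries. Lgr5-DTR replicate 2 fell between WT replicates 2 and 3, so the genotypes overlapped. In basal cells Cdh19 was listed at 0 in all 6 libraries, and in stromal cells it reached at most 0.00998 FPKM in Lgr5-DTR and 0.0945 FPKM in WT libraries. The means were 18.4 ± 7.37 FPKM in Lgr5-DTR and 8.34 ± 3.21 FPKM in WT luminal cells (SD, n = 3 each). The log2 difference of 1.03 (SE 0.37) did not pass the test (limma adjusted p = 0.148).

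Ngfr (chromosome 11, 95568821 to 95587698), the low-affinity neurotrophin receptor p75, is low in adult Schwann cells that form myelin and high in precursors, non-myelinating and repair cells. It measured 20.2, 6.34 and 10.1 FPKM in Lgr5-DTR luminal libraries, against 1.19, 1.82 and 2.36 FPKM in WT luminal libraries. Again every Lgr5-DTR luminal library was above every WT one. Basal libraries had 1.33, 0.478 and 0.415 FPKM in Lgr5-DTR and 0.231, 0.724 and 0.507 FPKM in WT cells, so that Lgr5-DTR basal replicate 1 overlapped the WT luminal range. Stromal libraries had 0.279 to 0.630 FPKM in Lgr5-DTR and 0.709 to 0.912 FPKM in WT cells. The luminal means were 12.2 ± 7.19 FPKM in Lgr5-DTR and 1.79 ± 0.587 FPKM in WT cells (SD, n = 3 each), a log2 difference of 2.13 (SE 0.37, limma adjusted p = 0.0211).

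S100b (chromosome 10, 76253836 to 76261319), a calcium-binding protein used as a general glial marker, was the lowest of the 6 genes in the luminal sort. It measured 0.620, 0.239 and 1.78 FPKM in Lgr5-DTR luminal libraries, against 0.420, 1.22 and 2.06 FPKM in WT luminal libraries. The 2 ranges overlapped almost wholly. It was listed at 0 in every basal library and reached 0.104 FPKM in Lgr5-DTR and 0.613 FPKM in WT stromal libraries; the WT stromal maximum lay above the lowest WT luminal library. The luminal log2 difference was -0.26 (SE 0.37, limma adjusted p = 0.697), and the gene passed the filter by 3 libraries only, the fewest allowed.

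Mbp (chromosome 18, 82475123 to 82585637) encodes myelin basic protein from a downstream start and the larger Golli proteins, found outside myelin as well, from a start far upstream. It measured 20.9, 18.1 and 14.3 FPKM in Lgr5-DTR luminal libraries, against 17.4, 12.9 and 17.4 FPKM in WT luminal libraries. Basal libraries had 22.1, 29.4 and 32.4 FPKM in Lgr5-DTR and 25.9, 23.0 and 20.2 FPKM in WT cells and all but WT basal replicate 3 lay above the highest luminal library. Stromal libraries had 0.127 to 0.529 FPKM in Lgr5-DTR and 0.394 to 0.738 FPKM in WT cells. The genotypes overlapped in both epithelial populations, with a log2 difference of 0.15 (SE 0.20, limma adjusted p = 0.677) in luminal and 0.26 (SE 0.18, limma adjusted p = 0.394) in basal cells.

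The transcripts of Mbp separated what the summed value joined. The tables list 2 transcripts from the upstream start and 6 from starts 79340 bases or more downstream, and 4 of these 6 were listed at 0 in all libraries. In all 6 basal libraries and in 4 of 6 luminal libraries, 100% of Mbp was assigned to the upstream start, to NM_001025245 alone in these luminal libraries, a Golli-type transcript that ends before the last exons of the gene. Lgr5-DTR luminal replicate 3 had 9.55 FPKM from the upstream and 4.79 FPKM from the downstream start, 66.6% upstream. WT luminal replicate 3 had 10.1 FPKM upstream and 7.31 FPKM downstream, 58.0% upstream. Downstream-start Mbp, the form that encodes the myelin protein, was therefore assigned in 1 library of each genotype in the luminal sort. The division of reads between overlapping transcripts is an estimate by the authors' software, and a transcript listed at 0 may be a one-sided division.

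**Figure D2:**
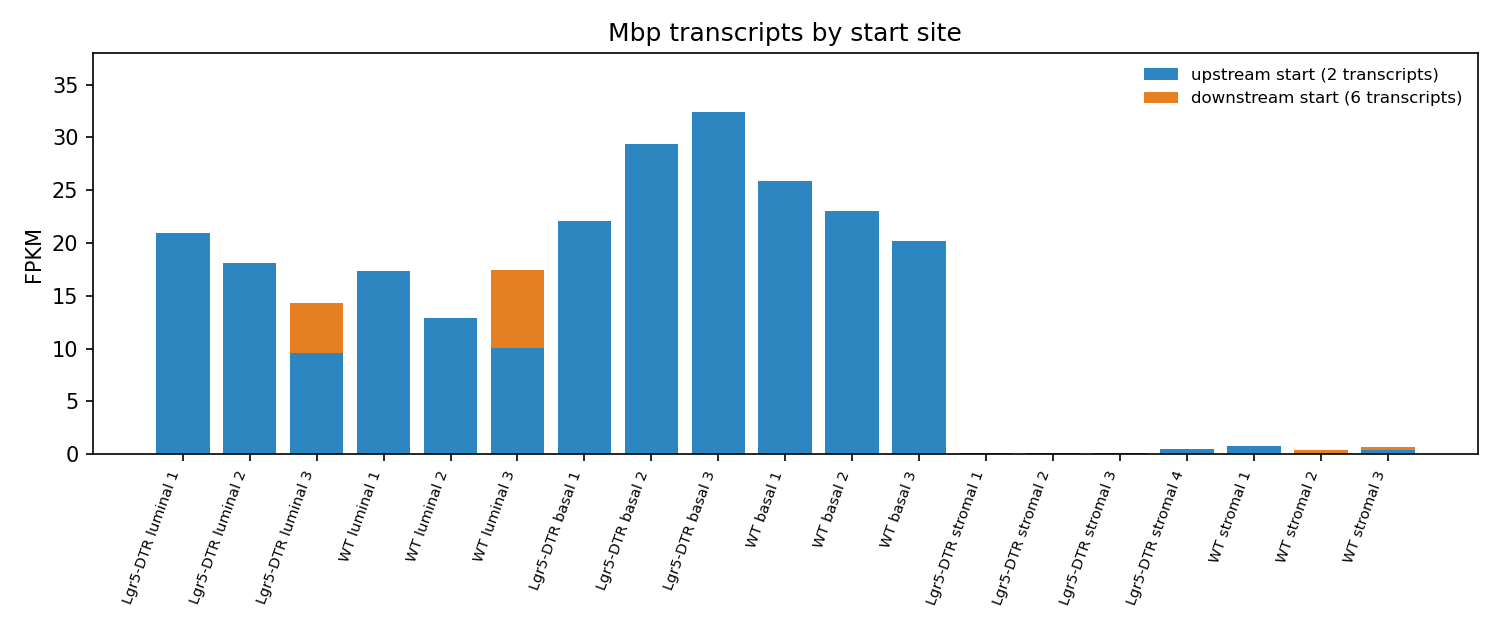
FPKM of Mbp transcripts by library, stacked by start site (upstream start, 2 transcripts, and downstream starts, 6 transcripts). Downstream-start transcripts appear in luminal cells in Lgr5-DTR replicate 3 (4.79 FPKM) and WT replicate 3 (7.31 FPKM), and basal libraries show the upstream start alone.

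Mia (chromosome 7, 27179741 to 27181149) encodes a small secreted protein with an SH3-like fold, first known from melanoma and cartilage. It measured 10.6, 10.4 and 10.1 FPKM in Lgr5-DTR luminal libraries, against 3.10, 1.56 and 3.67 FPKM in WT luminal libraries. In basal cells the order was the other way, with 17.3, 11.1 and 8.84 FPKM in Lgr5-DTR libraries, against 24.1, 34.2 and 24.0 FPKM in WT libraries. Neither pair of groups overlapped. Stromal libraries had 0 to 0.924 FPKM in Lgr5-DTR and 0.204 to 2.28 FPKM in WT cells.

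Mia averaged 10.4 ± 0.237 FPKM in Lgr5-DTR and 2.78 ± 1.09 FPKM in WT luminal cells (SD, n = 3 each), a log2 difference of 1.64 (SE 0.25, limma adjusted p = 0.0144). In basal cells it averaged 12.4 ± 4.38 FPKM in Lgr5-DTR and 27.4 ± 5.85 FPKM in WT cells (SD, n = 3 each), a log2 difference of -1.12 (SE 0.25, limma adjusted p = 0.0235). Its transcript is 567 bases long, and in the processing set the FPKM of such short transcripts exceeded the midpoint of their own confidence interval, by 1.84 times for Mia in Lgr5-DTR luminal replicate 1. Taken at the midpoint, Mia averaged 8.76 ± 2.60 FPKM in Lgr5-DTR and 1.96 ± 0.376 FPKM in WT luminal cells, and 8.34 ± 3.28 FPKM in Lgr5-DTR and 21.8 ± 3.88 FPKM in WT basal cells (SD, n = 3 each). Both differences passed the test on that measure too. The basal call was lost, at unchanged size, when replicate numbers were used as a block (limma adjusted p = 0.0896), and it was lost without Lgr5-DTR basal replicate 2 or 3 and without WT basal replicate 2 or 3.

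Sequence just before the annotated start is shown for Ngfr and Mia, which were higher in Lgr5-DTR luminal cells, and for S100b, which was not called. Windows of these 3 of the 6 genes were taken by symbol from RefSeq's promoter table (GRCm38.p6), which gave none for Sox10 and Cdh19. Mbp was left out of that search. The windows are the 250 bases before the first base, 5′ to 3′ on the strand of the gene. Capitals mark the GC box GGGCGG and the CCAAT box on either strand (CCGCCC and ATTGG in reverse).
Ngfr, chr11:95587699-95587948, minus strand: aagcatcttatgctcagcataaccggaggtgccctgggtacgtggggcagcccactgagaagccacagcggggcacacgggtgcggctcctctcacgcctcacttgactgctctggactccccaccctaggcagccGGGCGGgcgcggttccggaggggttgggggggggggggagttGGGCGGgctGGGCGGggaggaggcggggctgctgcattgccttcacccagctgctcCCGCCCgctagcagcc
Mia, chr7:27181150-27181399, minus strand: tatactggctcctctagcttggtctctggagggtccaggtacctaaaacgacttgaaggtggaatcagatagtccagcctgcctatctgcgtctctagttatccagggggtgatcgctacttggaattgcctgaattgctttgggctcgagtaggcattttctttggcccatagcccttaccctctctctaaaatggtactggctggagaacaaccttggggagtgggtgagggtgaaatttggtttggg
S100b, chr10:76253586-76253835, plus strand: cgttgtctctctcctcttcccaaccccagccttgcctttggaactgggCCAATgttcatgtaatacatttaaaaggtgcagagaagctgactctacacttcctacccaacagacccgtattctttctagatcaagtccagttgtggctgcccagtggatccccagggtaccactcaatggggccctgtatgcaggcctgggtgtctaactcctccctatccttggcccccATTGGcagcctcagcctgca
The Ngfr window held 4 GC boxes and had 70.4% G and C bases, against a median of 52.4% over 32851 promoter windows of the same length, of which 32.7% hold a GC box. The S100b window held 2 CCAAT boxes (33.8% of all windows hold at least 1), and the Mia window held neither motif. The Sox-type letters ACAAAG and ACAATG, on either strand, occurred in none of the 3 windows and occur in 16.5% and 10.7% of all windows. These motifs do not overlap one another, and a match is a description of letters, not of binding.

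Against WT, 3 of the 6 genes were called in luminal cells, all higher in Lgr5-DTR (Sox10, Ngfr and Mia), and Cdh19, Mbp and S100b were not. Over all 10529 genes tested in luminal cells 3.14% were called, 2.63% higher and 0.513% lower. Lgr5-DTR luminal libraries lay wholly above WT ones for the same 3 genes, as they did for 17.4% of all genes tested. The calls of all 3 were lost without WT luminal replicate 2 (adjusted p 0.0534 to 0.136) and without WT luminal replicate 3 (adjusted p 0.0778 to 0.0976), where the whole table gave 27 calls and 1 call in place of 331. Without a filter on low values none of the 3 passed and 5 genes in all were called. TMM-type scaling called 223 genes higher and 162 lower and quantile scaling 145 higher and 73 lower, against 277 and 54 without scaling, and each kept the calls of Sox10, Ngfr and Mia. The log2 differences stayed above 0, at 1.73 to 2.54 for Sox10, 1.71 to 2.48 for Ngfr and 1.38 to 1.81 for Mia over all single libraries left out.

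In basal cells 2 of the 6 genes, Mbp and Mia, reached the filter and Mia was called, lower in Lgr5-DTR, where 10.9% of 9757 genes were called, 4.43% lower. In stromal cells none of the 6 reached it, and 1.17% of 10691 genes were called there. The 6 genes were thus compared in stromal cells by their values alone.

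The interaction test called a difference between populations in the genotype effect of Sox10, Ngfr and Mia, and most of these calls depended on the pseudocount and on single libraries. With the pseudocount of 1, the luminal minus the basal genotype difference was 2.75 (SE 0.37, limma adjusted p = 0.00184) for Mia, 2.15 (SE 0.46, limma adjusted p = 0.0181) for Sox10 and 1.92 (SE 0.48, limma adjusted p = 0.0362) for Ngfr on the log2 scale, where 5.55% of 11282 genes were called. Against stromal cells it was 2.51 (SE 0.42, limma adjusted p = 0.00419) for Ngfr, 2.17 (SE 0.44, limma adjusted p = 0.0134) for Sox10 and 2.08 (SE 0.48, limma adjusted p = 0.0272) for Mia, where 3.07% of 12059 genes were called. Both interactions use the same luminal libraries. With a pseudocount of 0.1 Mia alone was called against basal cells (limma adjusted p = 0.00376, against 0.0641 for Sox10 and 0.120 for Ngfr). Against stromal cells Ngfr alone was then called (limma adjusted p = 0.00741, against 0.0626 for Sox10 and 0.192 for Mia). With single libraries left out, the call against basal cells was kept in 12 of 12 fits for Mia, 9 of 12 for Sox10 (lost without WT luminal, Lgr5-DTR basal or WT basal replicate 2; limma adjusted p up to 0.0548) and 4 of 12 for Ngfr (limma adjusted p up to 0.10). For Ngfr it was lost without Lgr5-DTR luminal replicate 1, any WT luminal replicate, or replicate 2 or 3 of either basal group. Against stromal cells the calls of Ngfr and Sox10 were kept in 13 of 13 fits and that of Mia in 9 of 13. That of Mia was lost without Lgr5-DTR luminal replicate 1, WT luminal replicate 2, Lgr5-DTR stromal replicate 3 or WT stromal replicate 1 (limma adjusted p up to 0.0871), and with TMM-type (0.0690) and quantile scaling (0.0848). Cdh19, S100b and Mbp were called in neither, with adjusted p of 0.180, 0.753 and 0.852 against basal and 0.208, 0.973 and 0.446 against stromal cells. Sox10, Cdh19 and S100b passed the filter of both fits through luminal libraries alone, and so did Ngfr and Mbp in the stromal one, where stromal libraries reached at most 0.912 and 0.738 FPKM. Ngfr in the basal fit and Mia in the stromal one passed it only with the luminal libraries. There 1 basal library (1.33 FPKM) and 1 stromal library (2.28 FPKM) reached 1 FPKM. For all of these the interaction restates the luminal difference beside low values.

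Across the luminal libraries the 6 genes did not share 1 order. Lgr5-DTR replicate 1 was highest for Sox10, Ngfr, Mia and Mbp, Lgr5-DTR replicate 3 for Cdh19, and WT replicate 3 for S100b. WT replicate 1 was lowest for Sox10, Cdh19 and Ngfr, WT replicate 2 for Mbp and Mia, and Lgr5-DTR replicate 2 for S100b. Within the processing set Sox10 was at 64.0 FPKM in the Lgr5-DTR luminal library, against 5.24 and 9.56 FPKM in the WT ones, and outside it at 20.3 and 30.5 FPKM in Lgr5-DTR, against 6.23 FPKM in WT. Ngfr followed the same split, with 20.2 FPKM in Lgr5-DTR against 1.19 and 2.36 FPKM in WT inside the set, and 6.34 and 10.1 FPKM in Lgr5-DTR against 1.82 FPKM in WT outside it. A fit with the set as a covariate called the same 3 genes.

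A further 30 Schwann lineage genes, listed from general knowledge with earlier results of these data known, were set beside the 6. In luminal cells 24 of the 30 reached the filter and 4 were called, all higher in Lgr5-DTR (Gap43, Gfra3, Cadm4 and Sox2). Left-out libraries moved that count to 1 without Lgr5-DTR replicate 1, 9 without Lgr5-DTR replicate 2, 3 without Lgr5-DTR replicate 3, 2 without WT replicate 1 and 0 without WT replicate 2 or 3. The median log2 difference of the 24 was 0.66, against 0.10 over all genes tested, and 19 of 24 were above 0. Every luminal library of both genotypes lay above every other library for 13 of the 24 (54.2%), a pattern shown by 2274 of 12357 genes (18.4%). The summed level of the 30 was 195 to 396 FPKM in Lgr5-DTR and 141 to 204 FPKM in WT luminal libraries, so Lgr5-DTR replicate 2 lay within the WT range. That sum was higher in stromal libraries, at 497 to 697 FPKM in Lgr5-DTR and 763 to 1047 FPKM in WT. There Matn2 averaged 303 FPKM in Lgr5-DTR and 495 FPKM in WT, and Pmp22 236 FPKM in Lgr5-DTR and 311 FPKM in WT.

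**Figure D3:**
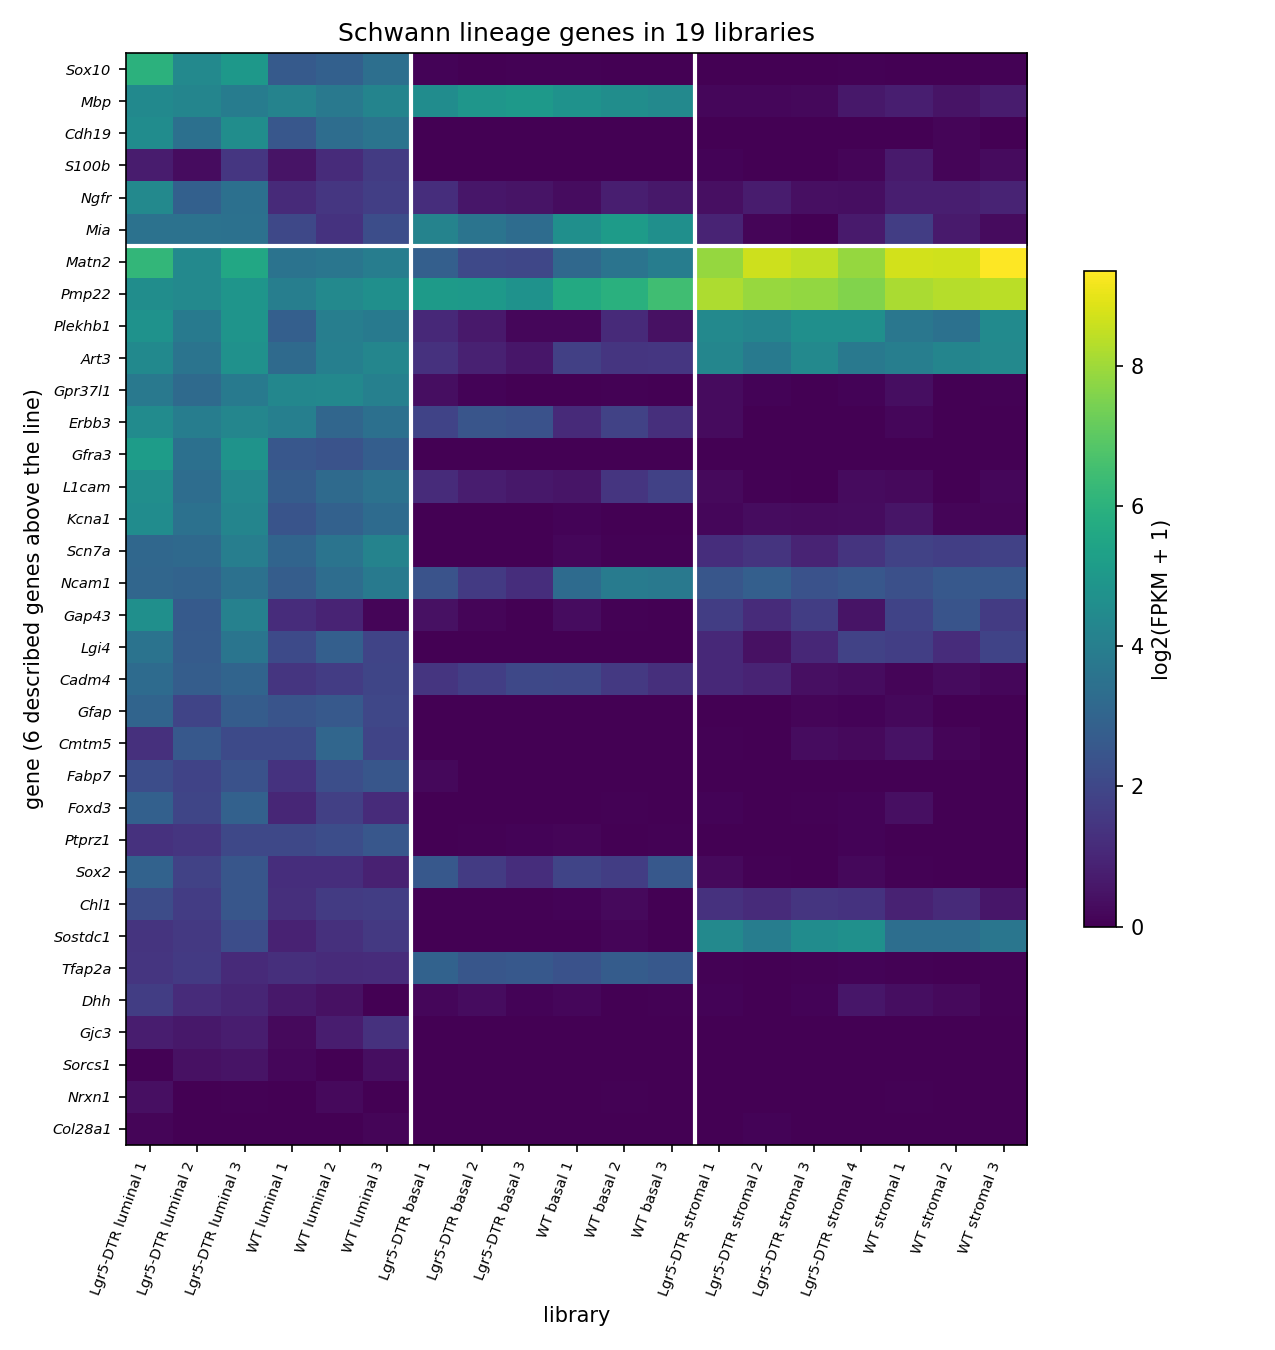
Level of the 6 genes (above the white line) and 28 of the 30 other Schwann lineage genes in the 19 libraries, as log2(FPKM + 1) from dark to light. Gfra3, Kcna1 and Foxd3 stand in luminal columns as Sox10 and Cdh19 do, whereas Matn2 and Pmp22 are brightest in stromal columns.

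Among lineage genes not called, Kcna1, a voltage-gated potassium channel of axons and Schwann cells, measured 22.1, 10.3 and 18.0 FPKM in Lgr5-DTR luminal libraries, against 4.37, 6.44 and 8.73 FPKM in WT. The groups did not overlap (log2 difference 1.23, SE 0.31, limma adjusted p = 0.0648), and no basal or stromal library passed 0.451 FPKM. Foxd3, a transcription factor of neural crest and Schwann precursors, measured 6.32, 2.91 and 6.43 FPKM in Lgr5-DTR, against 1.00, 2.38 and 1.23 FPKM in WT luminal libraries (limma adjusted p = 0.0631). Gpr37l1, a glial receptor, ran the other way at 12.7, 8.47 and 13.2 FPKM in Lgr5-DTR, against 19.2, 19.9 and 15.6 FPKM in WT luminal libraries, without overlap (log2 difference -0.64, SE 0.21, limma adjusted p = 0.120). The list therefore held genes with values on both sides.

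Gfra3, the artemin co-receptor of sensory and glial cells, measured 34.8, 9.90 and 27.1 FPKM in Lgr5-DTR luminal libraries, against 4.84, 4.19 and 5.88 FPKM in WT (log2 difference 1.91, SE 0.40, limma adjusted p = 0.0448). Outside the luminal sort it was listed at 0 in every library except Lgr5-DTR stromal replicate 4, at 0.0211 FPKM. Gap43, a growth-associated membrane protein of regrowing axons and of Schwann cells without myelin, measured 24.2, 5.23 and 16.0 FPKM in Lgr5-DTR, against 1.28, 0.890 and 0.0924 FPKM in WT luminal libraries (log2 difference 3.05, SE 0.51, limma adjusted p = 0.0232). It was the gene of the list with the largest difference. In stromal libraries Gap43 averaged 1.53 FPKM in Lgr5-DTR and 3.05 FPKM in WT cells. Both lay above its WT luminal mean of 0.754 FPKM and below its Lgr5-DTR luminal mean of 15.2 FPKM. Sox2, a transcription factor kept in immature and repair Schwann cells and also found in prostate epithelium, measured 6.69, 2.57 and 4.72 FPKM in Lgr5-DTR, against 1.33, 1.35 and 0.802 FPKM in WT luminal libraries (limma adjusted p = 0.0487). Basal libraries held Sox2 as well, at 1.36 to 4.90 FPKM in Lgr5-DTR and 2.22 to 4.93 FPKM in WT cells. Cadm4, the adhesion molecule by which Schwann cells bind axons, averaged 7.17 ± 1.46 FPKM in Lgr5-DTR and 2.24 ± 0.566 FPKM in WT luminal cells (SD, n = 3 each, limma adjusted p = 0.0209). In basal cells Cadm4 averaged 2.36 FPKM in Lgr5-DTR and 2.10 FPKM in WT, near its WT luminal mean.

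**Figure D4:**
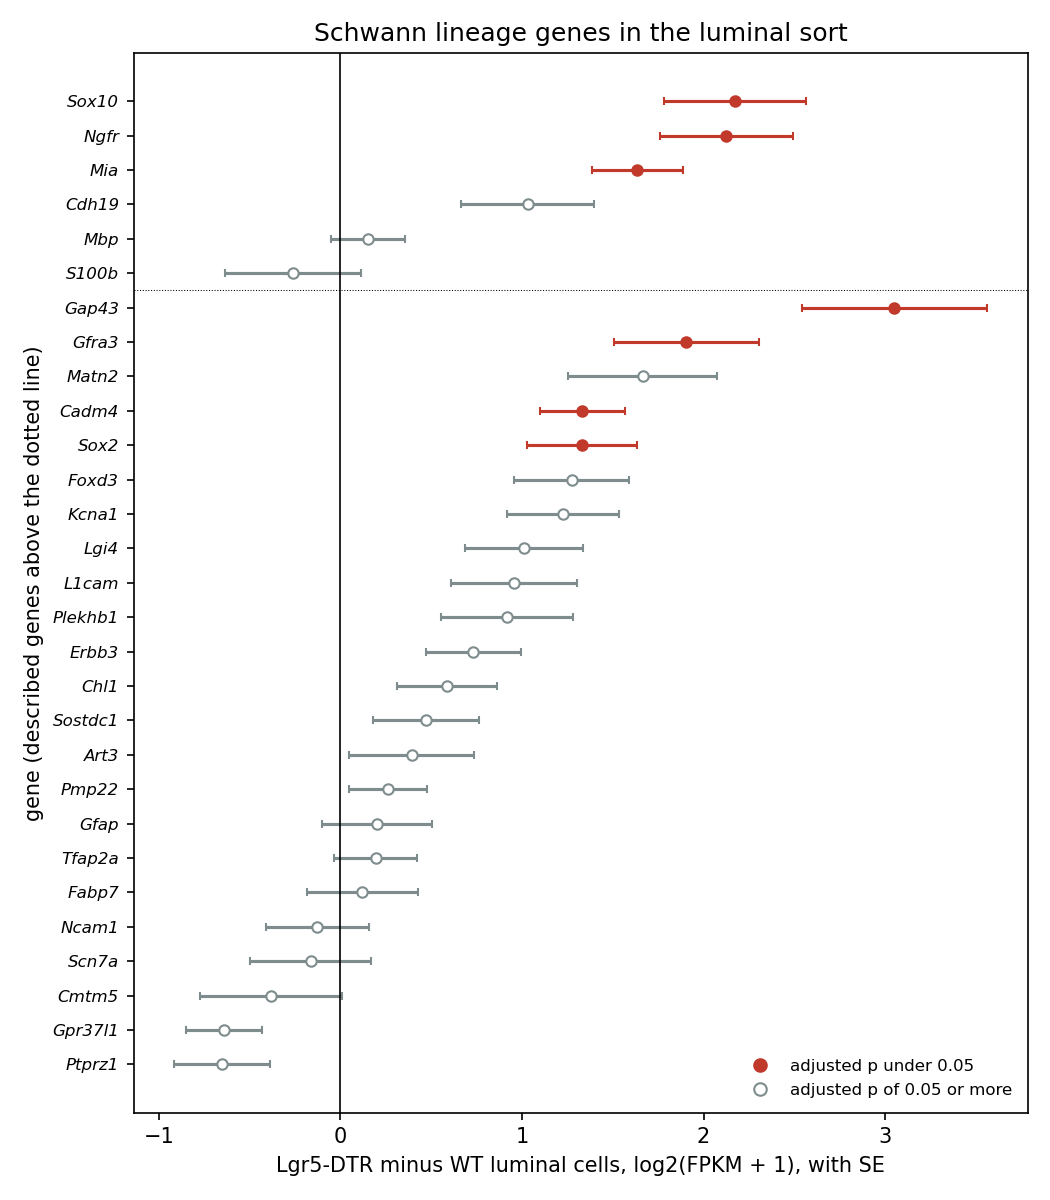
Lgr5-DTR minus WT difference in luminal cells on the log2(FPKM + 1) scale, with its SE, for the 6 genes (above the dotted line) and 23 of the 24 Schwann lineage genes that reached the filter. Filled points passed an adjusted p of 0.05: 3 of the 6 and 4 of the 23, all to the right of 0.

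Myelin genes of peripheral nerve were unevenly represented in the luminal sort. Of the 17 listed, 10 reached 1 FPKM in at least 3 of the 19 libraries. For 5 of these (50%) every luminal library lay above every other library, as for 18.4% of all genes. Among the 5, Mal averaged 24.5 FPKM in Lgr5-DTR and 21.1 FPKM in WT luminal cells. Gjb1 averaged 17.5 FPKM in Lgr5-DTR and 16.6 FPKM in WT. Pllp, also 1 of the 5, averaged 13.9 FPKM in Lgr5-DTR and 20.4 FPKM in WT luminal cells, without overlap (limma adjusted p = 0.190). Pmp22, which is made by many cell types besides Schwann cells, was at 20.0 to 28.3 FPKM in Lgr5-DTR and 15.1 to 23.9 FPKM in WT luminal libraries and was far higher in stromal libraries, at 190 to 290 FPKM in Lgr5-DTR and 289 to 329 FPKM in WT. Egr2, the activator of myelin genes and an immediate early gene in other cells, was found in all populations, with 14.2, 13.5 and 30.6 FPKM in Lgr5-DTR and 7.22, 17.6 and 16.6 FPKM in WT luminal libraries (limma adjusted p = 0.511). Of the 17 myelin genes listed 9 were tested in luminal cells and 1 was called, Gldn. Gldn, gliomedin, which gathers sodium channels at nodes of Ranvier, measured 13.3, 3.72 and 8.03 FPKM in Lgr5-DTR luminal libraries and was listed at 0 in all WT luminal libraries (limma adjusted p = 0.00579). Gldn missed the filter when any 1 Lgr5-DTR luminal library was left out, and no myelin gene was called without WT luminal replicate 3.

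Of 13 other neurotrophin genes listed 5 were tested in luminal cells and none was called. Sort1, sortilin, the co-receptor of Ngfr for unprocessed neurotrophins, was at 16.3 to 21.2 FPKM in Lgr5-DTR and 18.1 to 21.6 FPKM in WT luminal libraries (limma adjusted p = 0.594). It was lower elsewhere, at 2.31 to 7.02 FPKM in Lgr5-DTR and 3.89 to 9.54 FPKM in WT basal libraries, and at 0.747 to 1.55 FPKM in Lgr5-DTR and 0.615 to 1.33 FPKM in WT stromal libraries.

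Erbb3 and its ligand gene Nrg1 were highest in different populations. Erbb3, the neuregulin receptor of Schwann cells and also of many epithelia, measured 21.8, 14.8 and 18.3 FPKM in Lgr5-DTR luminal libraries, against 15.4, 7.39 and 10.004 FPKM in WT (limma adjusted p = 0.143), and at most 4.48 FPKM in Lgr5-DTR and 2.59 FPKM in WT basal libraries. Nrg1, its ligand gene, was at 0.304 to 0.739 FPKM in Lgr5-DTR and 0.0576 to 0.555 FPKM in WT luminal libraries. Stromal libraries had Nrg1 at 6.00 to 32.9 FPKM in Lgr5-DTR and 1.86 to 5.21 FPKM in WT cells, without overlap, and basal libraries had 6.07 to 10.2 FPKM in Lgr5-DTR and 6.87 to 9.18 FPKM in WT cells. Of the 8 neuregulin genes listed 3 were tested in luminal cells and none was called, nor was any in basal (5 tested) or stromal cells (4 tested).

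Near relatives of Sox10 and Mia had other distributions. Sox9, a SoxE factor of epithelial progenitors, measured 128, 147 and 64.4 FPKM in Lgr5-DTR luminal libraries, against 67.1, 22.1 and 28.1 FPKM in WT (limma adjusted p = 0.104). In basal cells it measured 251, 211 and 181 FPKM in Lgr5-DTR, against 99.7, 95.8 and 114 FPKM in WT (limma adjusted p = 0.00710). Sox8, the remaining SoxE gene, was under 1 FPKM in every luminal library. Mia3 and Mia2, relatives of Mia that act in the export of large cargo from the endoplasmic reticulum, were highest in luminal cells, with Mia3 at 17.0 to 25.1 FPKM in Lgr5-DTR and 25.2 to 26.1 FPKM in WT (limma adjusted p = 0.341) and Mia2 at 5.72 to 13.5 FPKM in Lgr5-DTR and 3.95 to 6.88 FPKM in WT (limma adjusted p = 0.294).

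Markers of other cell types that use some of these genes were read in the same libraries. Of 11 melanocyte markers, 10 stayed under 0.5 FPKM in every Lgr5-DTR luminal library and 9 in every WT one. Their summed level was 0.399 to 1.76 FPKM in Lgr5-DTR and 0.926 to 1.33 FPKM in WT, and Tyr, Pmel and Mlana were listed at 0 in all 6. Of 7 oligodendrocyte markers 5 stayed under 0.5 FPKM in every luminal library of each genotype. The summed level of the 7 was 20.4 to 52.9 FPKM in Lgr5-DTR and 12.3 to 21.5 FPKM in WT luminal libraries. On average most of this sum came from 1 gene that is also on the Schwann lineage and myelin lists. In basal and stromal libraries that sum did not pass 0.503 FPKM. A group mean of at least 1 FPKM was reached by 2 of the 7 in Lgr5-DTR and 1 in WT luminal cells. Opalin was listed at 0, Olig2 and Mobp did not pass 0.176 FPKM, and Mog did not pass 0.266 FPKM in the luminal sort. Of 14 neuronal markers 8 stayed under 0.5 FPKM in every Lgr5-DTR luminal library and 10 in every WT one, the summed level being 6.99 to 14.9 FPKM in Lgr5-DTR and 1.93 to 4.28 FPKM in WT. Tubb3, a neuronal tubulin, was called higher in Lgr5-DTR luminal cells at 3.40, 2.66 and 5.36 FPKM, against 0.251, 0.533 and 1.16 FPKM in WT (limma adjusted p = 0.0280). No neuronal marker was called without Lgr5-DTR luminal replicate 1 or WT luminal replicate 2 or 3.

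Some markers of stromal cells and macrophages were called between genotypes in the same luminal libraries. The summed level of 13 macrophage markers was 161, 36.2 and 120 FPKM in Lgr5-DTR luminal libraries, against 30.7, 24.8 and 29.7 FPKM in WT. The Lgr5-DTR libraries stood in the same order as for Sox10 and Ngfr, with replicate 1 highest and replicate 2 lowest. Sums of the fibroblast, pericyte, endothelial and Schwann lineage lists had that order too. Those of the luminal, basal, smooth muscle, neuronal and erythrocyte lists, among others, did not. An order of 3 libraries is easily shared, and it was not tested. Of the 13 macrophage markers, 9 were tested and Lyz2, the macrophage lysozyme, was called higher (limma adjusted p = 0.0355), whereas 6 were called without Lgr5-DTR replicate 2 and 0 in each other fit with a library left out. Of 15 fibroblast markers 8 were tested and 5 were called higher, all collagens (Col1a1, Col1a2, Col3a1, Col6a1 and Col6a2), with a summed level of all 15 at 215 to 358 FPKM in Lgr5-DTR and 202 to 249 FPKM in WT. That count was 1 without Lgr5-DTR replicate 1, 2 without WT replicate 1 and 0 without WT replicate 2 or 3. Col1a1, a chain of fibrillar collagen, measured 38.7, 18.1 and 39.8 FPKM in Lgr5-DTR luminal libraries, against 3.23, 4.51 and 5.45 FPKM in WT (limma adjusted p = 0.00663), while Dcn, decorin, another fibroblast gene, averaged 10.8 ± 4.07 FPKM in Lgr5-DTR and 20.5 ± 12.3 FPKM in WT (SD, n = 3 each, limma adjusted p = 0.277).

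Of 7 pericyte markers 6 were tested and Pdgfrb and Kcnj8 were called higher, with a summed level of 24.2 to 50.2 FPKM in Lgr5-DTR and 7.82 to 18.1 FPKM in WT. Of 10 endothelial markers 2 were tested and Eng, endoglin, was called higher, at 14.4 ± 4.32 FPKM in Lgr5-DTR and 5.80 ± 0.734 FPKM in WT (SD, n = 3 each, limma adjusted p = 0.0358), with a summed level of 14.1 to 25.2 FPKM in Lgr5-DTR and 10.2 to 18.4 FPKM in WT. Of 8 neuroendocrine markers 3 were tested and none was called, with a summed level of 16.7 to 33.6 FPKM in Lgr5-DTR and 6.18 to 20.8 FPKM in WT. Chga, chromogranin A, measured 25.3, 8.59 and 9.06 FPKM in Lgr5-DTR luminal libraries, against 8.36, 4.17 and 10.7 FPKM in WT (limma adjusted p = 0.360). No endothelial marker was called without Lgr5-DTR replicate 1 or any single WT replicate, and no pericyte marker without WT replicate 2 or 3. Erythrocyte markers, 9 of 11 in the tables, summed to 104 to 431 FPKM in Lgr5-DTR and 178 to 1033 FPKM in WT, none called among 6 tested. Of 17 luminal markers Pbsn, probasin, was called lower in Lgr5-DTR, and of 12 basal markers tested none was called. The part of these cell types in the differences of Sox10, Ngfr and Mia was not tested.

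The genes most like each of the 6 in pattern were ranked by Pearson's r of log2(FPKM + 1) over the 19 libraries, among 8826 genes, as a description in which libraries and their 3 populations are shared. Gfra3 (r = 0.996), Kcna1 (0.990) and Zfp536 (0.989) came first for Sox10 and Chga (0.973) was sixth, and Kcna1 (0.995), Zfp536 (0.988) and Rgs5 (0.983) were among the nearest to Cdh19. Klk9 (0.962), Sema4f (0.946), Fgf5 (0.944) and Gfra3 (0.935) came first for Ngfr. Genes most like Mbp were Polr2b (0.994), Fam83h (0.993) and Shroom3 (0.992), those most like Mia were Foxp1 (0.956), Sall3 (0.953) and Ptpn14 (0.953), and for S100b the closest was Hist1h4j (0.915). Among the 6, Sox10 paired most closely with Cdh19 (r = 0.98) and Ngfr (0.94), and Mbp with Mia (0.87). None of the 10 genes nearest to Mbp or to Mia was among the 10 nearest to Sox10, Cdh19 or Ngfr.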

How the data were processed

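RNA of flow-sorted cells was amplified by a low-input full-length method and made into tagmented libraries, per the labels' protocols. The deposited FPKM per RefSeq transcript, with confidence limits and status, were made by the authors with TopHat2 and Cufflinks on mm10, per the submitters' processing notes (no versions given). A read coverage per transcript, per the file headers, served here only for depth (coverage times length). No counts were used, so no counting interval was computed and precision comes from replicates.

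FPKM were summed per symbol and log2(FPKM + 1) was fitted with limma 3.58.1 (R 4.3.3, trend and robust empirical Bayes), each population on its own, with interactions on pairs of populations. Genes needed 1 FPKM in 3 libraries. The tests were checked on simulated data. The 6 genes, the lists and the tests were chosen with earlier results of these data known. Named genes were the 6, and from each list at most 4 with the highest WT luminal mean and at most 4 with the smallest luminal p, printed where a result turned on them, with up to 10 genes per pattern ranking; Gpr37l1, Foxd3, Egr2, Nrg1, Sox8, Dcn, Mog, Olig2, Mobp, Opalin, Tyr, Pmel and Mlana were named after their values were seen where they fall outside it. Alternatives were another pseudocount, no filter, TMM-type and quantile scaling, the top transcript alone, left-out libraries and replicate blocks. The interval midpoint, the processing set as a covariate and leaving out genes with failed or capped estimates, and list counts with libraries left out, were added after seeing the data. Results of a few listed genes are not reported here.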

Additional observations from a re-analysis of the deposited data

Results flagged for a closer look

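The interaction test called 3 genes as differing between populations in their genotype difference. The luminal minus basal difference was 2.15 for Sox10, 1.92 for Ngfr and 2.75 for Mia on the log2 scale, and the luminal minus stromal difference was 2.17 for Sox10, 2.51 for Ngfr and 2.08 for Mia. Sox10 reached the filter of both tests through luminal libraries alone, as did Ngfr in the stromal one, so these values restate the luminal difference beside values near 0. Ngfr in the basal test and Mia in the stromal one reached it only with the luminal libraries. Their highest basal and stromal values were 1.33 and 2.28 FPKM, so these too restate the luminal difference beside low values. The calls kept with a pseudocount of 0.1 were Mia against basal and Ngfr against stromal cells. For Mia the groups moved in opposite directions, higher in Lgr5-DTR luminal and lower in Lgr5-DTR basal cells.

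In the Lgr5-DTR stromal group of 4 libraries, 1 library stood far above the others for 3 genes, all at low levels. Mbp was highest at 0.529 FPKM (replicate 4), Ngfr at 0.630 FPKM (replicate 2) and Cdh19 at 0.00998 FPKM, where the other 3 libraries were listed at 0. For normally distributed values such a gap is expected by chance in about 1 of 20 groups, and 6 groups were looked at. That rate does not hold for values near 0. A group in which 1 library alone is above 0, as for Cdh19, is always flagged.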

How the results depend on the processing

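The differences of Sox10, Ngfr and Mia in luminal cells kept their direction under every alternative run, and their calls were lost without the filter on low values and without WT replicate 2 or 3. The number of the 6 genes called in luminal cells was 3 at first, 0 without the filter and 0 to 3 with single libraries left out. In basal cells it was 1 at first, 0 without the filter and 0 to 1 with single libraries left out. For the luminal minus basal interaction it was 3 at first, 1 with a pseudocount of 0.1 and 1 to 4 with libraries left out, and 1 where WT luminal replicate 2, Lgr5-DTR basal replicate 2 or WT basal replicate 2 was missing; for luminal minus stromal it was 1 with that pseudocount. Over all genes, luminal calls numbered 331, and 5 without the filter, 218 with quantile scaling, 193 at the interval midpoint, 750 with the processing set as a covariate and 1 to 871 with libraries left out (highest without Lgr5-DTR replicate 3). Basal calls numbered 1064, and 492 without the filter and 286 to 2228 with libraries left out. Stromal calls numbered 125, and 36 without the filter, 77 with quantile scaling, 49 with the covariate and 31 to 231 with libraries left out. With the replicate numbers as a block, luminal, basal and stromal calls over all genes numbered 752, 212 and 1039, and 0 of the 6 genes passed in basal cells. Lgr5-DTR and WT luminal libraries with the same replicate number correlated at 0.38, -0.11 and 0.26. Basal ones correlated at -0.529, -0.247 and -0.376, and stromal ones at 0.377, 0.486 and -0.0457. With such mixed values these numbers were not taken to pair samples in the main fits. Whether stromal libraries were paired cannot be told from them. Other numbers, in the sample titles, recur across populations within a genotype, and the labels do not say whether they mark the same animal. Libraries of different populations sharing a title number correlated at -0.0567 to 0.406. The main interaction fits took all libraries as independent. Blocks of title numbers were run as an alternative, with a correlation within blocks of 0.133 (basal) and 0.173 (stromal). Some uncalled interactions reversed: Mbp, luminal minus basal, at 0.000127 with the covariate and between -0.262 and 0.0310 with libraries left out, and S100b, luminal minus stromal, at -0.00743 with TMM-type scaling, -0.220 with quantile scaling, -0.0245 with the covariate and between -0.247 and 0.304 with libraries left out. TMM-type and quantile scaling moved the luminal median of all genes by -0.127 and -0.148, and the stromal one by 0.118 with quantile scaling. S100b gave no luminal value in 3 of 6 fits with a library left out, since it then missed the filter. Apart from fewer samples or other genes tested, the cause of these changes was not tested. FPKM carry no counts, so the limit that depth sets was not computed.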
